A study of Mus musculus with 2 samples.

Results

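Titin, nebulin, leiomodin 3, the 3 myomesins and 3 myosin binding proteins are structural proteins that set the length of the sarcomere filaments and hold them in register. The genes were taken by name from the deposited table: Ttn, Neb, Lmod3, Myom1, Myom2, Myom3, Mybpc1, Mybpc2 and Mybph, 9 of 34745 genes listed, and the rule that takes them uses names, not measured values, although earlier results of these data were known when the group was chosen. They were followed in RNA of gastrocnemius muscle, the large calf muscle, from C57BL/6 mice 8 weeks old. One library came from the genotype Cry2flox/flox (Cry2flox), which carries recombination sites at the gene of the circadian repressor cryptochrome 2, and 1 from the genotype Cry2scko. The labels name no Cre driver, do not spell out scko, and say neither whether a library holds 1 animal or a pool nor at which hour muscle was taken.

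The sarcomere is the contractile unit of muscle. Titin is a giant elastic protein that runs from the Z-disc to the M-band, nebulin lies along the thin filament, and leiomodin 3 promotes the growth of the thin filament at its pointed end. Myomesins cross-link thick filaments and titin at the M-band, and myosin binding proteins sit on the thick filament and modulate the cross-bridges. Several of these genes are tied to fibre types by name or by preference. Mybpc1 encodes the isoform of myosin binding protein C named slow and Mybpc2 the one named fast. Myom2 is most abundant in fast fibres and Myom3 in intermediate ones.

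Promoter windows of RefSeq on build GRCm38.p6 were found for 6 of the 9 genes: Ttn, Myom1, Myom3, Mybpc1, Mybpc2 and Mybph. The 250 bases before the annotated start are shown for 4: Ttn as the scaffold of the group, Myom3 as the gene with the highest ratio between the libraries, and Mybpc1 and Mybpc2 as the paralogues whose balance differed. Capitals mark matches, on either strand, to CANNTG (the general E-box), CACGTG (the E-box form bound by clock activators, itself a case of CANNTG), TTATGTAA (the D-box), AGGTCA (a nuclear receptor site) and CTA followed by TAG after a gap of 4 bases (an MEF2-type site).
Ttn, chr2:76982548-76982797, minus strand: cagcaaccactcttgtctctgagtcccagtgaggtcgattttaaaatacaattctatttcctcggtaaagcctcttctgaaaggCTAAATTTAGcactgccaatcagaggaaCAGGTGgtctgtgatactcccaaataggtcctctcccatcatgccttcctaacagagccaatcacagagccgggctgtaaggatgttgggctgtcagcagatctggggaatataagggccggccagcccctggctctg
Myom3, chr4:135759465-135759714, plus strand: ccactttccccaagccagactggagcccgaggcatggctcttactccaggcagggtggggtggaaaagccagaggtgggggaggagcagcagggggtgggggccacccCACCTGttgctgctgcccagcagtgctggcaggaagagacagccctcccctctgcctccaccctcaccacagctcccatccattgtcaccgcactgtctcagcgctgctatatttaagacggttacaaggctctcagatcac
Mybpc1, chr10:88605153-88605402, minus strand: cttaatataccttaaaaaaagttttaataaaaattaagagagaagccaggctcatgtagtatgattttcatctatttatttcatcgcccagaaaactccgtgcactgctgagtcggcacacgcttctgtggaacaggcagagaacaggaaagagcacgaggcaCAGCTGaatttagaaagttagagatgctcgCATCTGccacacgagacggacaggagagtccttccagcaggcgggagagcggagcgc
Mybpc2, chr7:44524670-44524919, minus strand: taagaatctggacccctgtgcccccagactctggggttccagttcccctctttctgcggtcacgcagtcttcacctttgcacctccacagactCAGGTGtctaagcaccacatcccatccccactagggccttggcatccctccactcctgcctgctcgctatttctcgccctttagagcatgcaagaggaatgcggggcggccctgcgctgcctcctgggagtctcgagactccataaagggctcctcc
In the windows of 300 bases, which add 50 bases after the start, CACGTG and TTATGTAA matched in 0 of the 6 genes, against 7.15% and 0.938% of 32851 windows of that length. The MEF2-type site matched in Ttn alone among the 6, in the sequence printed, and in 3.69% of all windows. AGGTCA matched in Mybph alone among the 6, on the reverse strand, and in 16.3% of all windows. CANNTG matched in all 6, with 3 matches in Mybpc1 and in Myom1, 2 in Mybpc2 and 1 in each of the others, and in 72.3% of all windows. These matches describe letters in a window, not bound sites, and the Myom1 window lies inside the gene as GENCODE draws it.

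The libraries held 18909433 reads in Cry2flox and 16423884 in Cry2scko. Reads of Cry2, the gene that the genotype labels name, numbered 676 in Cry2flox against 133 in Cry2scko, a level 4.46-fold lower. Muscle fibre genes were abundant in both, with Acta1 at 17071 and 16486 FPKM (fragments scaled to gene length and library size) and Ckm at 11156 and 11512 FPKM. Each genotype has 1 library, so the spread between animals is unknown and no p-value could be had. The 95% intervals given throughout come from read counts alone, and without molecular identifiers copies made by PCR cannot be told from separate molecules, so intervals and limits for 0 reads cover counting error only. In whole muscle, fewer cells of a type and less RNA per cell cannot be told apart.

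None of the 9 genes differed by 2-fold or by 1.5-fold between the libraries. A gene was called where its mean CPM (counts per 1000000 reads of the scaled library) was at least 1, the ratio of Cry2scko over Cry2flox was at least 2-fold either way and the interval excluded 1. All 9 genes passed the filter on low values and 0 were called. Of 12832 genes tested 4.88% were called, and 1.79% of the 950 with a mean CPM of 100 or more. A count of 0 among 9 genes is therefore near the background. At 1.5-fold the 9 genes again gave 0, beside 10.9% of all genes tested and 4% of the 950, and with so few genes this too is near the background. The log2 ratios ran from -0.24 for Mybpc2 to 0.24 for Myom3, with a median of -0.12, beside a median of -0.00 and quartiles of -0.17 and 0.18 over all genes tested. Mybpc2 and Lmod3 lay below those quartiles and Myom3 above them, and the other 6 lay inside. The 950 abundant genes had a median of -0.04 and narrower quartiles of -0.13 and 0.05. Of the 8 sarcomere genes that reach a mean CPM of 100, 4 lay inside these (Ttn, Neb, Myom1 and Mybpc1) and the other 4 below.

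**Figure D1:**
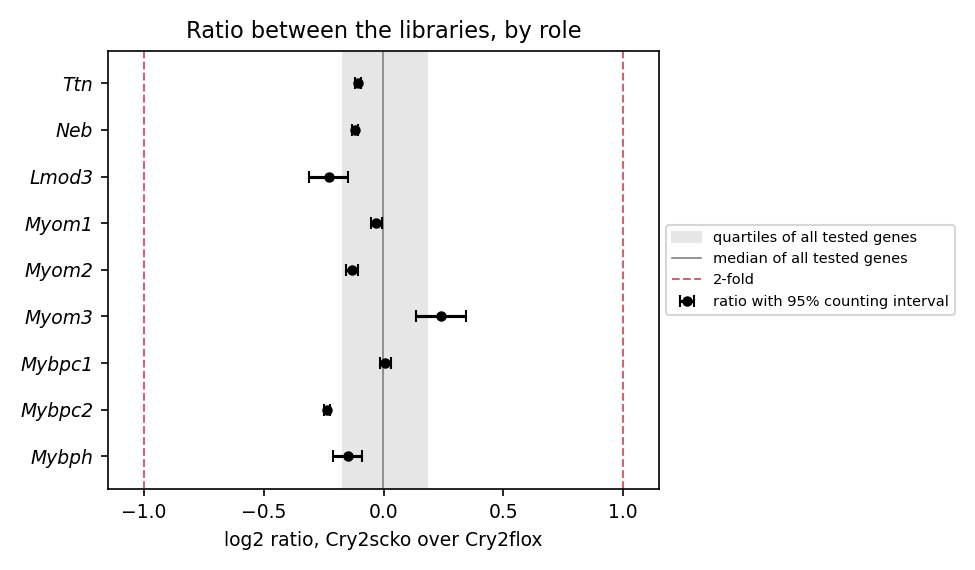
The log2 ratio of Cry2scko over Cry2flox (x axis) is plotted for the 9 genes in order of role, with 95% counting intervals as bars. The grey band spans the quartiles of 12832 genes, from -0.17 to 0.18, and the dashed lines mark 2-fold. All 9 points lie between -0.24 and 0.24.

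Although small, most of these differences were larger than counting error. The interval excluded a ratio of 1 in 8 of 9 genes, 7 of them lower and 1, Myom3, higher in Cry2scko. The same held for 33.5% of all genes tested and 65.8% of the 950 abundant genes, so at this depth it is common and, without replicates, says nothing of animals. Together the 9 genes took 423026 reads in Cry2flox, 2.24% of the library (95% Clopper-Pearson interval 2.23% to 2.24%). In Cry2scko they took 341045 reads, 2.08% (2.07% to 2.08%). Ttn, Neb and Mybpc2 supplied 76.1% of those reads in Cry2flox and 74.9% in Cry2scko.

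Ordered by level per length, on the deposited FPKM scale, the genes ranked the same in both libraries. Mybpc2 was highest, followed by Mybpc1, Myom1, Neb, Myom2, Mybph, Lmod3, Ttn and Myom3. Mybpc2 stood at 5.37 times the FPKM of Mybpc1 in Cry2flox and 4.53 times in Cry2scko. The order depends on the gene lengths used: with reads per kilobase of the longest coding transcript of GENCODE M21, Myom2 came ahead of Myom1, and Neb behind both, in the 2 libraries alike. With no replicates, no spread between samples shows which neighbours in this order differ.

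**Figure D2:**
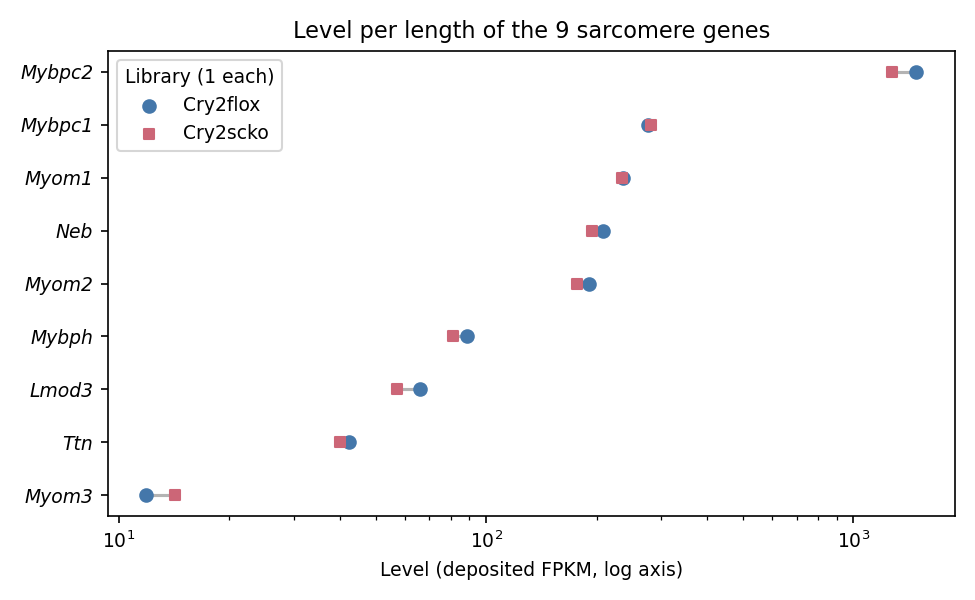
The level of each gene is plotted as deposited FPKM on a log axis, with a circle for the Cry2flox library and a square for Cry2scko. Levels span from 11.9 FPKM for Myom3 to 1482 FPKM for Mybpc2 in Cry2flox, and the order of the genes is the same in both libraries.

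Titin gave nearly equal levels in both libraries. Ttn (ENSMUSG00000051747, GRCm38 chromosome 2, 76703980 to 76982547, minus strand) had 107950 reads in Cry2flox and 88390 in Cry2scko. These correspond to 5749 and 5344 CPM. The log2 ratio was -0.11 (95% interval -0.12 to -0.09), a level 1.08-fold lower in Cry2scko. Ttn is the longest gene model among the genes tested, with an implied length of 134526 bases and a longest coding transcript of 347 exons and 106824 bases in GENCODE M21. Per length it was therefore modest, at 42.4 FPKM in Cry2flox and 40.0 FPKM in Cry2scko, although only 25 genes had more reads in either library. Gene counts pool all titin isoforms, so a switch between long and short springs would not be visible here.

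Nebulin followed titin closely. Neb (ENSMUSG00000026950, chromosome 2, 52136647 to 52378474, minus strand) was counted 112574 times in the Cry2flox library (5995 CPM) and 91253 times in the Cry2scko library (5517 CPM). Its log2 ratio was -0.12 (-0.13 to -0.11), 1.09-fold lower. Titin made up 49.0% (48.7% to 49.2%) of the reads of titin plus nebulin in Cry2flox and 49.2% (49.0% to 49.4%) in Cry2scko, and these intervals overlap. Per length nebulin was the more abundant, at 4.89 times the FPKM of titin in Cry2flox and 4.84 times in Cry2scko. This pair was chosen for comparison after its values were seen.

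Leiomodin 3 was among the lower ratios. Lmod3 (ENSMUSG00000044086, chromosome 6, 97238534 to 97252759, minus strand) was counted 2762 times in the Cry2flox library (147 CPM) and 2075 times in the Cry2scko library (125 CPM). The log2 ratio was -0.23 (-0.31 to -0.15), 1.17-fold lower. Within the leiomodins, Lmod3 held 46.3% (45.0% to 47.6%) of reads in Cry2flox and 44.2% (42.8% to 45.7%) in Cry2scko, so its share overlapped between the libraries. Lmod2, a close relative also made in heart, held nearly all of the rest, with 51.5% and 52.5%.

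Since titin and nebulin have very long transcripts, ratios were also set beside transcript length over all genes. In 3862 genes tested with an implied length of 8 kb or more, the median log2 ratio was -0.03 and the quartiles were -0.19 and 0.17. In 413 genes shorter than 1 kb it was 0.13, with quartiles of -0.06 and 0.31. The classes between had medians of 0.02, 0.00 and -0.00 in order of length. Titin and nebulin both lay within the quartiles of the longest class, and the part of transcript length in their ratios was not tested.

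Of the 3 myomesins, Myom1 and Myom2 had ratios below 1 and Myom3 a ratio above 1. Myom1 (ENSMUSG00000024049, chromosome 17, 71002633 to 71126856, plus strand), the myomesin of all striated fibres, was counted 29226 times in the Cry2flox library (1556 CPM) and 25216 times in the Cry2scko library (1525 CPM). Its log2 ratio of -0.03 (-0.05 to -0.01) was near equality, and its interval took in 1 when libraries were scaled by total count. Myom2 (ENSMUSG00000031461, chromosome 8, 15057653 to 15133541, plus strand), also called M-protein, was counted 33713 times in the Cry2flox library (1795 CPM) and 27107 times in the Cry2scko library (1639 CPM). The log2 ratio of Myom2 was -0.13 (-0.15 to -0.11), 1.10-fold lower.

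Myom3 was the least abundant of the group and the gene with the highest ratio. Myom3 (ENSMUSG00000037139, chromosome 4, 135759715 to 135815564, plus strand) was counted 1437 times in the Cry2flox library (76.5 CPM) and 1494 times in the Cry2scko library (90.3 CPM). Its log2 ratio was 0.24 (0.13 to 0.34), or 1.18-fold higher. Raw reads were thus almost equal, and the difference appears once the smaller Cry2scko library is scaled. By size of log2 ratio over the 2 libraries, the nearest genes of the lists were Srf at 0.23, Pln at 0.22 and Tead1 at 0.26, within 0.01, 0.02 and 0.02 of Myom3. These distances are smaller than counting error: the interval was 0.12 to 0.34 for Srf and 0.08 to 0.44 for Tead1. Pln had only 39 and 40 reads, with an interval of -0.45 to 0.89.

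Shares within the myomesin family need no scaling between libraries. Myom2 held 52.4% (52.0% to 52.8%) of myomesin reads in Cry2flox and 50.4% (49.9% to 50.8%) in Cry2scko. Myom1 held 45.4% (45.0% to 45.8%) and 46.9% (46.4% to 47.3%). Myom3 held 2.23% (2.12% to 2.35%) and 2.78% (2.64% to 2.92%). For each of the 3 the counting intervals of the libraries did not overlap, but the shares add to the whole and are not separate results. The interval of the ratio between libraries excluded 1 in 33.5% of all genes tested and 65.8% of the 950 abundant ones. Differences beyond counting error are thus common at this depth and say nothing of animals. Per length, on FPKM, Myom1 was the largest with 53.9% and 55.2%, ahead of Myom2 with 43.4% and 41.4%.

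Mybpc2 and Mybpc1, the fast and slow paralogues of myosin binding protein C, differed from each other in ratio. Mybpc2 (ENSMUSG00000038670, chromosome 7, 44501699 to 44524656, minus strand) was counted 101219 times in the Cry2flox library (5390 CPM) and 75720 times in the Cry2scko library (4578 CPM). Its log2 ratio of -0.24 (-0.25 to -0.22), 1.18-fold lower, was the lowest of the 9. Mybpc1 (ENSMUSG00000020061, chromosome 10, 88518279 to 88605152, minus strand) was counted 29213 times in the Cry2flox library (1556 CPM) and 25874 times in the Cry2scko library (1564 CPM). A difference in Mybpc1 was not detectable at this depth, with a log2 ratio of 0.01 (-0.02 to 0.03), although its interval excluded 1 when libraries were scaled by total count, at 0.03, or, at 0.04, by total count without mitochondrially encoded and the 20 most abundant genes. Mybpc1 made up 22.4% (22.2% to 22.6%) of the reads of the pair in Cry2flox and 25.5% (25.2% to 25.7%) in Cry2scko. These intervals did not overlap, but differences beyond counting error are common at this depth. The interval of the ratio between libraries excluded 1 in 65.8% of the 950 abundant genes. On FPKM the share of Mybpc1 was 15.7% and 18.1%.

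Mybph, a shorter relative of myosin binding protein C, differed little in its share of the family. Mybph (ENSMUSG00000042451, chromosome 1, 134193448 to 134201232, plus strand) was counted 4932 times in the Cry2flox library (263 CPM) and 3916 times in the Cry2scko library (237 CPM). The log2 ratio was -0.15 (-0.21 to -0.09), 1.11-fold lower. Mybph held 3.64% (3.54% to 3.74%) of the family's reads in Cry2flox and 3.71% (3.60% to 3.83%) in Cry2scko, so its share overlapped. Mybph shares 1162 exon bases with Adora1 on the other strand, and Adora1 had 12 and 15 reads. The strand setting is not given, so whether reads in the shared bases were left out of both genes cannot be told.

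**Figure D3:**
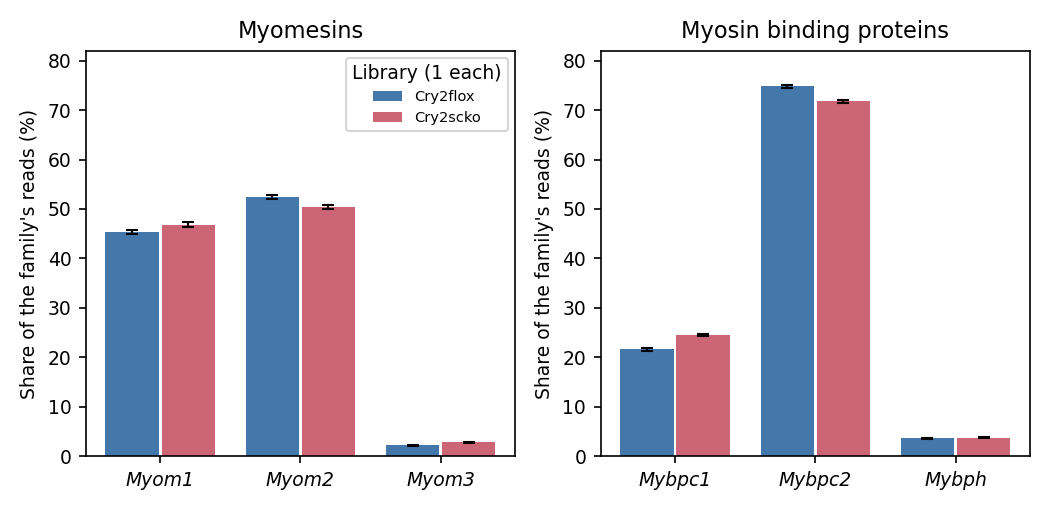
The percent of family reads (y axis, from 0) is plotted for each myomesin and each myosin binding protein, blue for Cry2flox and red for Cry2scko, with exact 95% counting intervals as error bars. Mybpc2 goes from 74.8% to 71.8% and Mybpc1 from 21.6% to 24.5% of the reads of their family.

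Sequence shared with other genes was limited for most of the 9. No 50-base word of an annotated transcript of any of the 9 occurred in a transcript of another of them. In Mybph 43.9% of these words lay in Adora1 transcripts, and in the other 8 genes at most 4.36% were found in any other gene. Myom1 shares 207 exon bases with Myl12a on the other strand, which had 4088 and 3771 reads. The antisense genes that share exon bases with Ttn, Neb and Mybpc2 had at most 2 reads. Within the longest nebulin transcript 4.36% of the 50-base words occurred more than once, and within titin 0.71%; how reads with several matches were counted is not given in the sources used here.

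Fibre-type markers differed between the libraries, and their part in the ratios was not tested. Among 12 slow fibre markers 6 were called higher and 0 lower, with a median log2 ratio of 0.98, where 3.37% of genes tested were called higher and 1.51% lower. Their summed level went from 2594 CPM in Cry2flox to 4271 CPM in Cry2scko. The slow myosin Myh7 was among them, with 7822 and 16660 reads at 1.27 (1.24 to 1.31), and so was the slow troponin Tnni1 with 427 and 1146 reads. Mybpc1, the paralogue named slow, was at 0.01 beside them. It stood at 276 FPKM in Cry2flox and 282 FPKM in Cry2scko, above Myh7 at 43.0 and 105 FPKM. Which fibres made Mybpc1 RNA cannot be told in whole muscle. In reads of Mybpc1 plus Myh7, the share of Mybpc1 was 78.9% in Cry2flox and 60.8% in Cry2scko, with Myh7 higher and Mybpc1 near equality. Fast fibre markers had 0 of 11 called, with a median of -0.04 and a range from -0.22 to 0.17, and ratios above 1 in 5 and below in 6. Tnnt3, the fast troponin T, was at 0.03 and Atp2a1, the fast calcium pump, at 0.00. The fast myosin Myh1 was at -0.22 and Myh4 at -0.14, beside Mybpc2 at -0.24 and Myom2 at -0.13. Myh2, the myosin of fast oxidative fibres, was at 0.28 (0.26 to 0.30), beside Myom3 at 0.24. Among 8 sarcomeric myosin heavy chains, Myh7 and the embryonic Myh3 (47 and 129 reads) were called higher and the perinatal Myh8 (85 and 34 reads) lower. Their median, which counts each gene once, was 0.28. Their summed level instead went down, from 58341 CPM in Cry2flox to 54025 CPM in Cry2scko. Myh4 held 86.5% of their reads in Cry2flox and 84.5% in Cry2scko.

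Proteins that bind titin had 0 of 16 genes called and a median log2 ratio of -0.07. With 4.88% of all genes tested called in either direction, a count of 0 in this list and in the nebulin and M-band lists that follow is near the background. Tcap, which caps titin at the Z-disc, had 33815 and 22206 reads at -0.42 (-0.45 to -0.40). Ankrd23, an ankyrin repeat protein of the titin spring region, was at 0.07, and Actn3, the fast fibre alpha-actinin of the Z-disc, at -0.15. The range ran from -0.44 to 0.59, with 7 ratios above 1 and 9 below.

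Relatives of nebulin and proteins of thin filament length had 0 of 15 called and a median of -0.06. Nrap, a nebulin-related anchoring protein, had 21558 and 18238 reads at -0.06 (-0.09 to -0.03). Klhl41, a kelch protein of the nebulin region, was at 0.01 and Cfl2, the muscle cofilin, at -0.04. Ratios were above 1 in 4 and below in 11.

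Partners of the M-band and thick filament had 0 of 13 measured genes called and a median of 0.03. Mybpc3, the cardiac paralogue of myosin binding protein C, and Mybphl had 0 reads in both libraries, which at a limit of 3 reads allows up to 0.160 CPM in the Cry2flox library and 0.181 CPM in the other. Cmya5, or myospryn, was at -0.04 and Ckm, the creatine kinase found at the M-band, at 0.03. The lowest ratio, named after its value was seen, was that of the kinase gene Mylk4, with 27743 and 13839 reads at -0.82, under 2-fold.

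**Figure D4:**
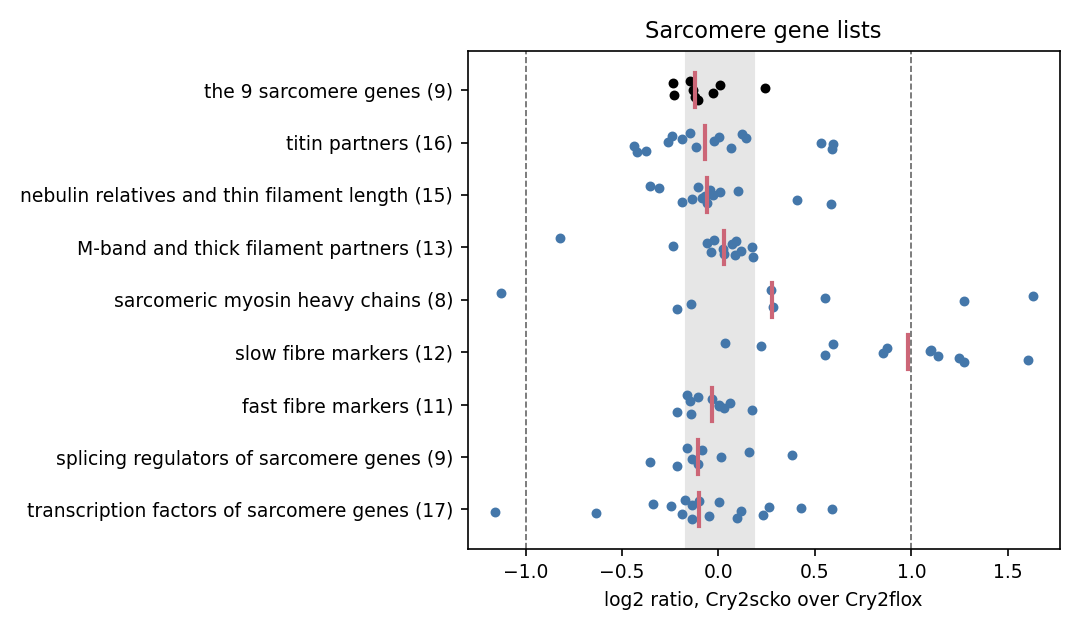
Each point is the log2 ratio of 1 gene (x axis), in rows for the 9 sarcomere genes and 8 lists, with the number of measured genes in parentheses. Red bars mark medians, the grey band the quartiles of all genes tested and dashed lines 2-fold. The median of the 9 genes is -0.12, those of the titin, nebulin and M-band lists lie between -0.07 and 0.03, and that of the slow fibre markers is 0.98.

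Markers of other cell types differed between the libraries in some lists, and their part in the ratios of the 9 genes was not tested. Over all genes tested 3.37% were called higher and 1.51% lower. Of 8 tendon markers 6 were called lower and none higher (summed level 183 CPM in Cry2flox and 81.9 CPM in Cry2scko, median -1.11). Of 8 lymphocyte markers 6 were called higher and none lower (38.1 and 96.8 CPM, median 1.31), and of 6 adipocyte markers 1 was lower (36.2 and 21.8 CPM, median -0.63). Regenerating fibre markers had 1 of 6 measured called higher and 3 lower, among them Actc1 at -1.05, with a median of -0.84. Smooth muscle, macrophage and endothelial markers had 0 of 6 called each, with medians of -0.09, 0.04 and -0.01.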

How the data were processed

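RNA of 2 gastrocnemius libraries, 1 per genotype, was sequenced from a Vazyme VAHTS Universal V6 library kit, per the labels' protocols. CASAVA, HISAT2 2.0.4, StringTie 1.3.0 and build GRCm38 appear in the submitters' processing notes. The annotation, read counter and strand setting are not given in the sources used here. The authors deposited whole-number read counts per Ensembl gene, not normalised, and FPKM values, per the file headers. Both columns of the count table share 1 header field. They were checked against the FPKM files: of 16284 genes read in both libraries, 100% gave the same implied length within 0.1 percent.

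Gene models came from GENCODE M21, on GRCm38, and names were found for 34267 of 34745 identifiers. Library sizes were adjusted by TMM in edgeR 4.0.16 (R 4.3.3), and 0.5 reads were added before the log2 ratio was taken. Its 95% interval is the Clopper-Pearson interval (exact) for the fraction of a gene's reads found in Cry2scko, turned into a ratio. With 1 library per group the quasi-likelihood test cannot be run. The calculation was tested on simulated counts (Python 3.11.15, numpy 2.4.6, scipy 1.17.1, pandas 2.3.3, matplotlib 3.10.9).

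The 9 genes and the 15 lists were chosen with earlier results of these data known. List medians take in genes from a mean CPM of 0.5. All 9 genes are named, and from each list up to 6 called genes and the 3 with the highest mean CPM could be named, plus the 3 listed genes nearest in log2 ratio to the member with the largest absolute ratio. Not every such gene is described, and some are not reported here. Alternatives were other scalings (total count, DESeq2 1.42.0 size factors, total count without mitochondrially encoded and the 20 most abundant genes), 5 reads added, the deposited FPKM with 0.1 or 1 added, other filters and a 1.5-fold threshold. Reads per kilobase of GENCODE transcripts, pairs outside the families and the omission of genes with shared exon bases were chosen after seeing the data. Protein sequences were not used here.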

Additional observations from a re-analysis of the deposited data

How the results depend on the processing

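The count of sarcomere genes past the 2-fold rule was 0 of 9 under every scaling, filter, added count and threshold tried, and also among the 3 genes that share no exon bases with another gene. All 9 log2 ratios kept their sign under the 6 alternatives of scaling, added reads or FPKM. Scaling by total count without mitochondrially encoded and the 20 most abundant genes shifted every ratio by 0.03 and gave a median of -0.091 over the 9, against -0.12. The interval of Mybpc1 took in a ratio of 1 with TMM factors, DESeq2 size factors or 5 reads added, and that of Myom1 did so in its place with total counts, with or without the most abundant genes. Over all genes, 432 were called higher and 194 lower. These became 789 and 396 without a filter, 175 and 76 at a mean CPM of 5 or more, 13 and 4 at 100 or more, 842 and 558 at 1.5-fold, and 78 and 28 with FPKM and 1 added, while with 0.1 added the lower count was 116. The median of macrophage markers turned from 0.04 to -0.24 at a mean CPM of 5 or more, where fewer genes enter, and that of endothelial markers from -0.01 to 0.0062 with total counts. The filter at a mean CPM of 5 moved the medians of myosin heavy chains from 0.28 to 0.42, regenerating fibre markers from -0.84 to -0.55, slow fibre markers from 0.98 to 1.10, lymphocyte markers from 1.31 to 1.53, adipocyte markers from -0.63 to -0.74 and titin partners from -0.07 to -0.11. The medians by transcript length moved by less than 0.1 with merged exon lengths. No paired analysis was possible because each genotype has 1 library, and for the same reason no library could be left out.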

Other observations

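Regulators that act on sarcomere genes were measured in the same libraries. The list of 17 transcription factors of sarcomere genes had a median log2 ratio of -0.10. Mef2c, which drives many sarcomere genes, was at 0.09 on 5380 and 5057 reads, Maf at -0.18 and Tbx15, a factor of glycolytic fibres, at -0.10. Splicing regulators had 0 of 9 called, near the background of 4.88% of all genes tested, and a median of -0.11. Their ratios were above 1 in 3 and below in 6. Celf2, named after its value was seen, had the highest at 0.38 (0.25 to 0.51). Mbnl1, the muscleblind factor of the fetal-to-adult splicing switch, was at -0.36 (95% counting interval -0.42 to -0.29), Mbnl2 at -0.13 and Rbfox1 at -0.08. Rbm20, the regulator of titin splicing, was also named after its value was seen. It had 1336 and 1014 reads at -0.21 (-0.33 to -0.10), with isoforms not separated in gene counts.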
